A study of Mus musculus with 56 samples.

Results

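The SR proteins and the heterogeneous nuclear ribonucleoproteins (hnRNPs) are the main families of RNA-binding proteins that choose splice sites. Their genes were taken as the rows whose symbol began with Srsf and a digit, or with Hnrnp, without pseudogene copies (-ps). The rule found 31 genes, 11 Srsf and 20 Hnrnp, among the 22859 genes for which reads could be recovered, and it used symbols alone. Of these, 30 reached a mean of 1 TPM (reads per base of exon, set to a common total across libraries) and were tested with the other genes above that level. The remaining member, Srsf12, had a mean of 2.95 reads per library and 0.0552 TPM and was left out of the main tests.

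Levels came from polyA RNA-seq of whole hearts of female C57BL/6J mice, an inbred strain, aged 9 weeks. All mice were kept in a light-dark cycle of 12 h:12 h and had free access to food for 7 days. For the next 7 days the first regimen offered food by day, the usual resting phase of mice (DRF, daytime-restricted feeding), and the second by night, their usual active phase (NRF, nighttime-restricted feeding, used as the reference). Time is given as zeitgeber time (ZT), where ZT0 is lights on, and 7 times from ZT0 to ZT24 were sampled with 4 replicates per regimen, giving 14 groups and 56 libraries. The labels do not say that replicates were separate animals, so p-values measure the spread between these samples. Each regimen was compared at the same ZT, which is the same light-dark time, and at the same feeding time, for which the NRF time course was moved by 12 h. The hours of the feeding windows were not in the labels, so the 12 h is an assumption on which each comparison in feeding time rests.

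Sequencing depth ran from 29.3 M to 52.9 M recovered reads per library (M, 1e6 reads), of which the 31 members took 0.282 to 0.372%. Markers of cardiomyocytes (Myh6, Tnnt2, Actc1, Ryr2 and Tnni3) summed to 16933 to 29033 TPM, so the labelled tissue was heart throughout. A pair of libraries stood apart. Over 1532 time-dependent genes that are not members, the library labelled DRF ZT4 replicate 1 lay 5.40 times nearer to NRF ZT8 than to its own group, and the library labelled NRF ZT8 replicate 1 lay 4.49 times nearer to DRF ZT4. Whether the labels of these 2 libraries were exchanged cannot be decided from the labels, and the DRF ZT4 and NRF ZT8 values below are to be read with that doubt. Both were kept under their labels, and the counts over all members that follow for rhythms, types and single times were repeated without them. Some counts by role and by list are also given without them.

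SR proteins bind exonic enhancers through an RNA recognition motif and recruit the spliceosome through a domain of arginine and serine repeats, whose phosphorylation sets where they act. Many hnRNPs bind silencer sequences and oppose that recruitment, and several also control export, decay or translation of mature messages. In heart muscle, alternative splicing tunes giant sarcomere proteins and calcium-handling proteins, and many SR and hnRNP genes limit their own output by splicing in exons that send the message to decay.

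That last feature bears on how the levels are read. In GENCODE M21, the 31 genes had 282 annotated transcripts, and 19 genes (9 Srsf and 10 Hnrnp) had at least 1 transcript typed as a target of nonsense-mediated decay. The level of a gene summed all of its transcripts, so coding and non-coding isoforms were not told apart. The library kit in the labels does not mark strand, and 14 members shared exon bases with another annotated gene. Copies of at least 95% identity over 300 bases existed as pseudogenes for 12 members, with the most for Hnrnpa3, and reads of those members may have been divided between copies.

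The promoters of 5 members with contrasting time courses are shown first, because the results below turn on these genes. Srsf5 had the widest daily swing, Srsf3, Hnrnph3 and Hnrnpa2b1 had fitted peaks 8 to 12 h apart between regimens, and Hnrnpd had fitted peaks less than 1 h apart. Each line gives the 250 bases before the RefSeq start on the strand of the gene, 5′ to 3′ (build GRCm38.p6): chr12:80945249-80945498 for Srsf5 (plus strand), chr17:29032410-29032659 for Srsf3 (plus), chr10:63023850-63024099 for Hnrnph3 (minus), chr6:51469846-51470095 for the downstream of 2 starts of Hnrnpa2b1 (minus) and chr5:99978939-99979188 for Hnrnpd (minus). Capitals mark matches to the motifs named after the sequences.
Srsf5: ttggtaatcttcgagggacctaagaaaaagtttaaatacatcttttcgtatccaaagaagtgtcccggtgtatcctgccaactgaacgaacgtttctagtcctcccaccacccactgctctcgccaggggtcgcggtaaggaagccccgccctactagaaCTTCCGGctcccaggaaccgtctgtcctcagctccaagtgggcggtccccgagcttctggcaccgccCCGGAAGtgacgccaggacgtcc
Srsf3: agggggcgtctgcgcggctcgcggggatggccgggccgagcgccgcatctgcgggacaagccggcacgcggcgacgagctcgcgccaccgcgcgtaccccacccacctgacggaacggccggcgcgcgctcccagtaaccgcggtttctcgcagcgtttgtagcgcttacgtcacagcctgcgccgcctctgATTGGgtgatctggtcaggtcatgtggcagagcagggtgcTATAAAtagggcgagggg
Hnrnph3: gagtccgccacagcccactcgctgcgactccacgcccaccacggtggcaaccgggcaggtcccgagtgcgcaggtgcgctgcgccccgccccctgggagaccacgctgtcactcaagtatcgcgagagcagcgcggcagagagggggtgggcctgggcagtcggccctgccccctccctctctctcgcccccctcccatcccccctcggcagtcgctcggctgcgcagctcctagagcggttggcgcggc
Hnrnpa2b1: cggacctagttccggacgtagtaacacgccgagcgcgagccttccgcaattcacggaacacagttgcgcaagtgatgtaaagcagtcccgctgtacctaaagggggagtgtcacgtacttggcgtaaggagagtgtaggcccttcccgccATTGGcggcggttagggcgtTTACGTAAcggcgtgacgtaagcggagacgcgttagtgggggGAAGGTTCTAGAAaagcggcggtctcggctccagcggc
Hnrnpd: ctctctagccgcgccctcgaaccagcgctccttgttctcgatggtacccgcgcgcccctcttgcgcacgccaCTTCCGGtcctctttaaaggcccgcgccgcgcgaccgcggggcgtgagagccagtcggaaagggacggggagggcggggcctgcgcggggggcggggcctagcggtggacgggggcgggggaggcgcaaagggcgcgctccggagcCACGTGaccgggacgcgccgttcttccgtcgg

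The table of promoters held 29 of the 31 members, with 41 starts. The motifs searched on both strands were the E-box bound by clock activators (CACGTG), the D-box bound by PAR bZIP factors (TTATGTAA or TTACGTAA), the cAMP response element (TGACGTCA), the heat shock element, the CCAAT box (CCAAT), an ETS motif (CCGGAAG), a FOXO motif (TGTTTAC) and the TATA box (TATAAA), and none contains another. The E-box was found in 3 members (Hnrnpa3, Hnrnpd and Hnrnpf), which is 7.32% of the member starts and 6.02% of all 32851 starts. All 3 were among the 12 members whose rhythm in TPM differed in feeding time alone, as described below, and the other 9 of those 12 had no match. With median-of-ratios scaling, Hnrnpf was not of that type. CCAAT boxes were in 9 of the 12, and in 4 of 6 members that differed at the same ZT alone. A link between motif and type was not tested. The D-box and the heat shock element were found in Hnrnpa2b1 alone among the members, against 0.931% and 0.466% of all starts. The cAMP response element was found in 0 member starts and 1.55% of all starts, and the FOXO motif was found in Srsf6 alone, against 3.17% of all starts. TATA boxes were found in Hnrnpm, Srsf2 and Srsf3, which is 7.32% of member starts and 12.4% of all starts. CCAAT boxes were the most frequent match, in 48.8% of member starts and 33.8% of all starts. ETS motifs, of which Srsf5 holds 2 in the sequence above, were found in 22% of member starts and 6.91% of all starts. Member starts also had a median GC content of 68% against 52.4%. In the sequences shown, Srsf3 holds a CCAAT box and a TATA box, Hnrnpd an E-box and an ETS motif, and Hnrnph3 none of the motifs. The Hnrnph3 sequence lies wholly within its gene as annotated in GENCODE M21 (chr10:63014664-63024217). Those of Srsf3 and Hnrnpa2b1 reach into their annotated genes. These are matches of letters, not measured sites.

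Daily rhythms were common among the members. Within NRF, 18 of 30 members were rhythmic with a period of 24 h (adjusted p under 0.05 by limma), against a background of 37.2% of the 13893 genes tested. Within DRF, 13 were rhythmic, against 32.2%, and 10 were rhythmic under both regimens, against 17.5%. The remaining 9 were rhythmic under neither regimen (background 48.1%). The median fitted amplitude on the log2(TPM + 1) scale was 0.14 under NRF and 0.11 under DRF, beside 0.10 and 0.10 over all genes tested. Without the pair of libraries that stood apart, 19 were rhythmic under NRF (background 42.8%), 12 under DRF (29.9%) and 9 under both (17.8%).

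Members were sorted by the tests in which their rhythms differed. A test that was not passed does not show equal rhythms, and a type does not say what a rhythm follows. At the same ZT, the rhythm of 12 members differed between regimens, against 27.5% of all genes. At the same feeding time, the rhythm of 17 members differed, against 41.3%. Combining both tests, 12 members differed in feeding time alone (background 26.9%), 7 at the same ZT alone (13.1%), 5 in both (14.4%) and 6 in neither (45.6%). Without the pair of libraries, 15 members differed at the same ZT (30.5%) and 18 in feeding time (43.3%). The combined counts were then 9 in feeding time alone (26.9%), 6 at the same ZT alone (14.1%), 9 in both (16.4%) and 6 in neither (42.5%), since Srsf6, Srsf10, Hnrnpa0 and Hnrnpdl moved to the type that differed in both. With median-of-ratios scaling, Srsf6, Srsf10 and Hnrnpdl did so too. Srsf1, Hnrnpul2 and Hnrnph2 were placed by these tests although they passed neither rhythm test. The plot of fitted peak times shows the members by type.

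**Figure D1:**
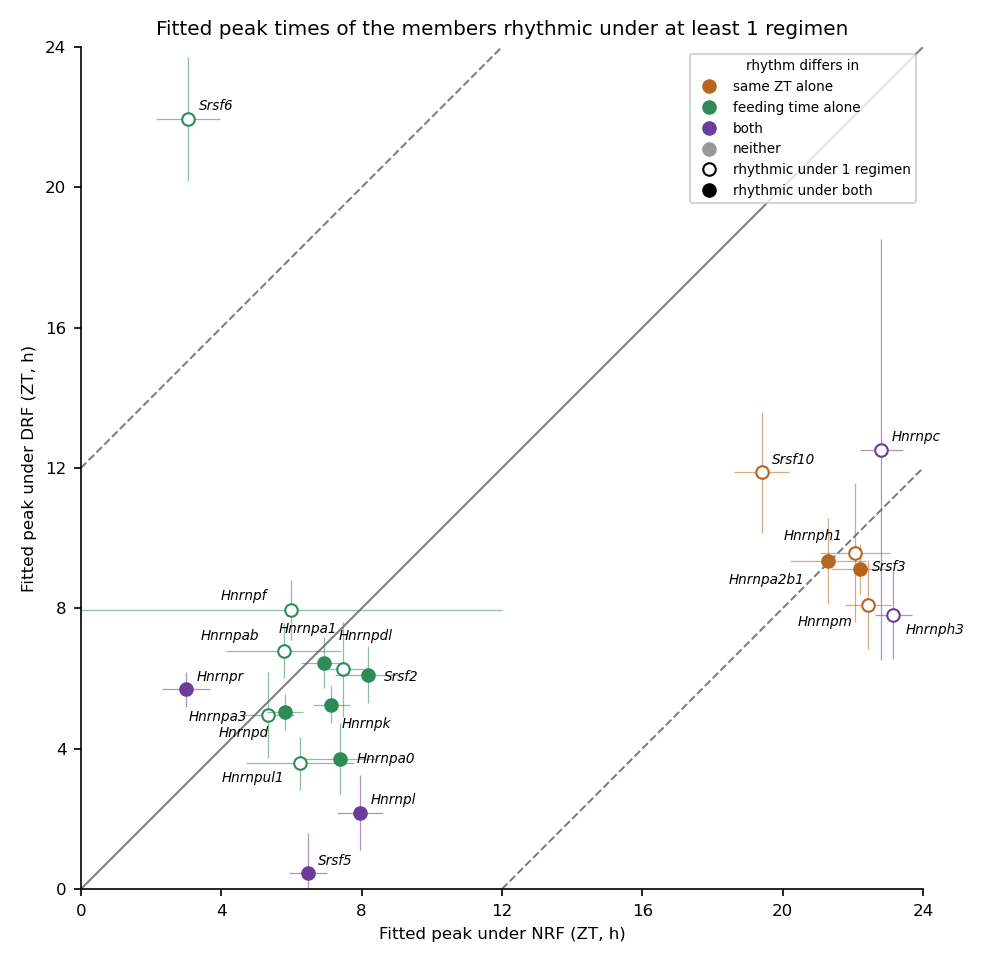
Fitted peak under NRF (x axis, ZT in h) against fitted peak under DRF (y axis, ZT in h) for the members rhythmic under at least 1 regimen, coloured by the test in which their rhythms differed. Bars are standard errors drawn to at most 6 h, the solid line marks equal ZT and the dashed lines a shift of 12 h. The members that differed in feeding time alone gather near the solid line between ZT3 and ZT9, except Srsf6. Those that differed at the same ZT alone gather near the dashed line at lower right, except Srsf10 (fitted shift -7.52 h).

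Among the classical SR genes, Srsf3 changed most clearly. Srsf3, the smallest SR protein and an adaptor for mRNA export (chr17:29032628-29043373), averaged 29.2 TPM under NRF and 26.2 TPM under DRF. At ZT0, its NRF libraries read 33.4, 29.2, 32.9 and 32.5 TPM, and its DRF libraries 20.8, 27.4, 26.2 and 21.3 TPM. At ZT12 the order was turned, with 26.2, 25.1, 24.5 and 21.8 TPM under NRF and 29.6, 34.7, 30.9 and 36.5 TPM under DRF. At ZT24 the NRF libraries read 36.8, 31.7, 34.5 and 36.4 TPM and the DRF libraries 20.9, 22.3, 23.7 and 25.6 TPM. The groups did not overlap at any of these 3 times. The fitted peak lay at ZT22.2 (SE 0.822 h) under NRF and ZT9.13 (SE 0.721 h) under DRF, a shift of 10.9 h (95% interval 8.79 to 13.1 h). The rhythm differed at the same ZT (adjusted p = 1.17e-06), whereas the test in feeding time was not passed (adjusted p = 0.624).

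Srsf3 was called at 4 of 7 times, the most of any member. The log2 difference, DRF minus NRF, was -0.41 (SE 0.11) at ZT0, 0.42 at ZT12, -0.46 at ZT20 and -0.57 at ZT24. The library labelled DRF ZT4 replicate 1 held 21.2 TPM of Srsf3 while the other replicates held 31.5 to 32.3 TPM. Without the pair of libraries the adjusted p for the rhythm at the same ZT was 4.06e-08. Near-identical copies of Srsf3 include the gene Gm12355, so a part of its reads may have been counted there.

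Srsf5, which binds purine-rich enhancers and was the most abundant SR gene in these hearts, had the widest swing of all members under each regimen. Its fitted peak-to-trough ratio was 1.99-fold under NRF and 1.61-fold under DRF. Under NRF its level was high through the light phase, with group means of 88.4 ± 9.74 TPM (SD, n = 4) at ZT4 and 81.8 ± 10.5 TPM at ZT12, and it was low in the dark, with 38.2, 48.7, 45.4 and 48.4 TPM at ZT16 and 48.3, 56.2, 41.9 and 45.8 TPM at ZT20. Under DRF it was also low at ZT16, with 58.6, 44.1, 42.1 and 45.5 TPM, and higher at ZT20, with 79.9, 77.6, 89.2 and 82.1 TPM. The ZT20 groups did not overlap and differed by 0.77 (SE 0.21) on the log2 scale (adjusted p = 0.00894). The peak came 6.02 h earlier under DRF, at ZT0.449 instead of ZT6.47 (95% interval of the shift -8.53 to -3.51 h). Its DRF rhythm had an adjusted p of 0.0169, and this call was lost in 7 of 20 alternatives (up to 0.126). Its rhythm differed both at the same ZT (adjusted p = 0.000969) and in feeding time (0.000785), and the call in feeding time was lost without ZT16 (0.364). At ZT4 the DRF libraries read 119, 47.8, 54.6 and 41.3 TPM, the first being the library that stood apart, and at ZT8 the NRF libraries read 50.6, 91, 90.5 and 104 TPM, again with the first standing apart. Leaving out both gave a shift of -6.76 h and an adjusted p of 3.39e-05 at the same ZT.

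The other classical SR genes moved less. Srsf2, a component of nuclear speckles, ranged from 44.2 to 79.5 TPM (median 55.1 TPM) under NRF and from 41.2 to 75.8 TPM (median 55.9 TPM) under DRF. It peaked at ZT8.17 under NRF and ZT6.11 under DRF with ratios of 1.28-fold and 1.29-fold, and differed in feeding time alone (adjusted p = 9.38e-05). Srsf6 ranged from 34.3 to 57.3 TPM (median 42.1 TPM) under NRF and from 33 to 52.4 TPM (median 42 TPM) under DRF. It was rhythmic under NRF (peak ZT3.06, adjusted p = 0.00562), and its adjusted p under DRF was 0.167. Srsf1, the founding SR protein, passed neither rhythm test within a regimen (adjusted p = 0.168 and 0.0688), yet the difference at the same ZT was called (0.0167). At ZT16 Srsf1 read 46.1, 46.6, 41.2 and 42.9 TPM under NRF and 32.7, 33.8, 32.4 and 30.4 TPM under DRF, without overlap, and the log2 difference was -0.44 (SE 0.10, adjusted p = 0.00398). Srsf4, Srsf7 and Srsf9 were called in none of the rhythm tests. By count, the NRF test was passed by 4 of the 8 classical SR genes (background 37.2%) and the DRF test by 3 (32.2%), the latter near the share over all genes.

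Of the SR-like genes, Srsf10, a repressor of splicing when it is dephosphorylated, was rhythmic under NRF with a peak at ZT19.4 (adjusted p = 0.00358). Under DRF its adjusted p was 0.128. At ZT12 its DRF libraries read 21.3, 22.9, 19.8 and 24.7 TPM and its NRF libraries 18.7, 15.8, 15.7 and 15.9 TPM, and the difference was called (log2 0.40, SE 0.11, adjusted p = 0.0237). At NRF ZT8 the library that stood apart read 25.8 TPM and the others 14.8 to 15 TPM. Srsf11 was called in no test.

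**Figure D2:**
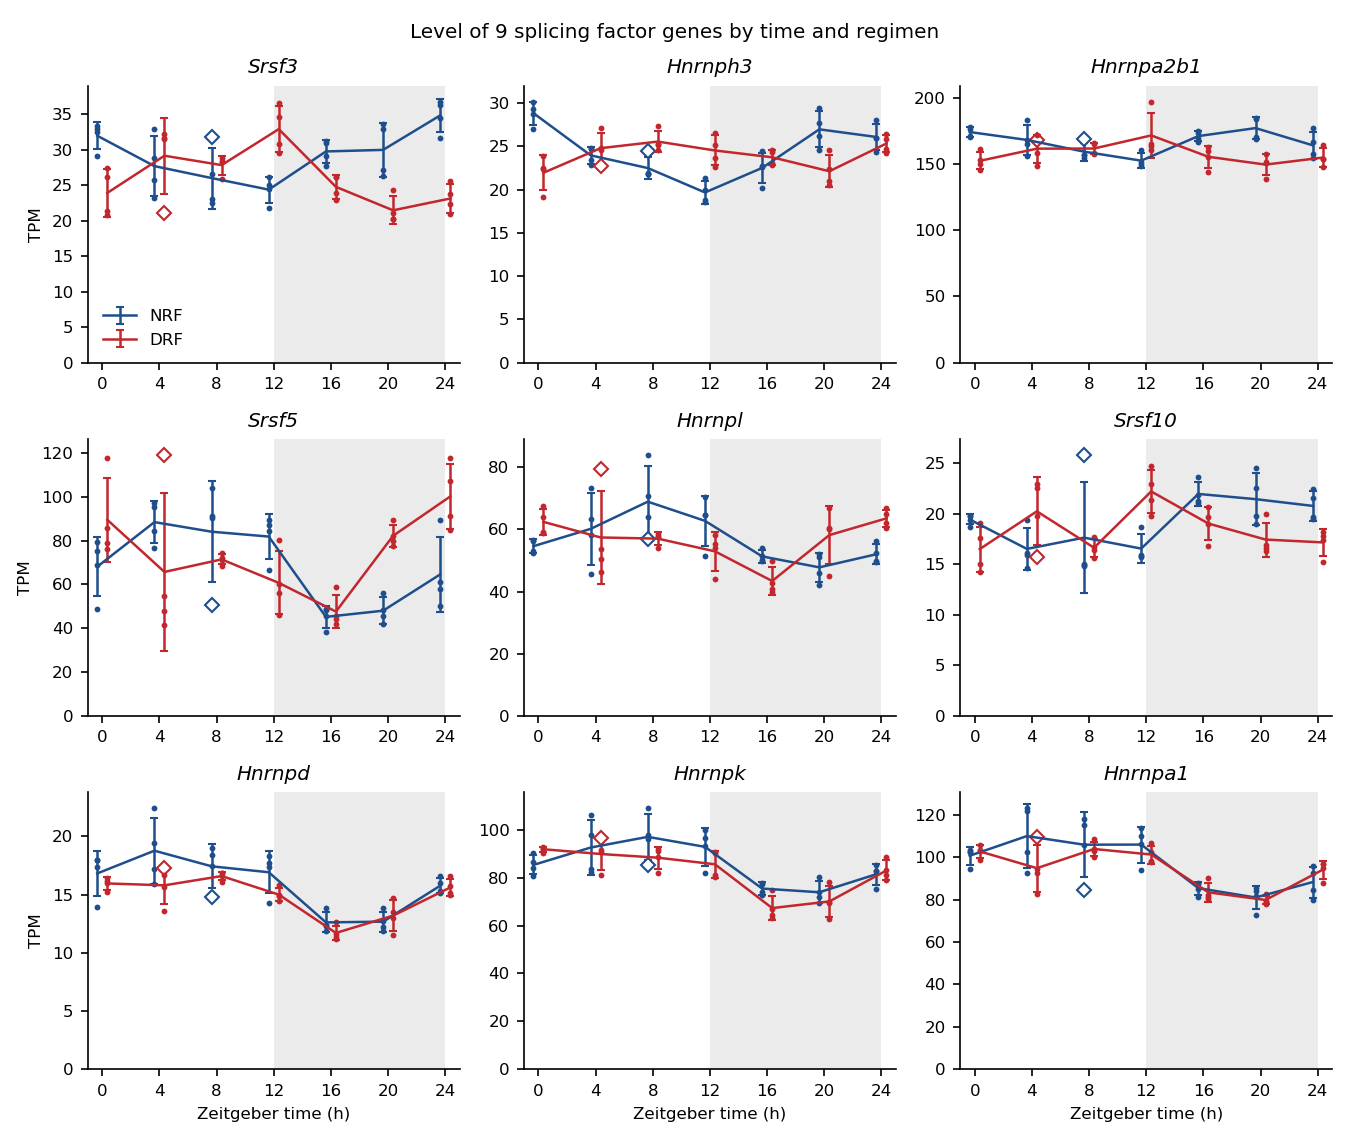
TPM (y axis, from 0) against ZT in h (x axis) for 9 members under NRF (blue) and DRF (red); small points are libraries, lines join group means with SD bars (n = 4), grey marks the dark phase and open diamonds mark the pair of libraries that stood apart. The upper row shows genes whose fitted peaks lay 8 to 12 h apart between regimens, although Hnrnph3 was not called rhythmic under DRF. The middle row shows genes with other differences. The lower row shows genes whose courses run together, with their lowest group means at ZT16 or ZT20.

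The hnRNPs of the A/B type mostly differed in feeding time and not at the same ZT. The NRF test was passed by 6 of the 7 and the DRF test by 5, and 6 differed in feeding time alone (backgrounds 37.2%, 32.2% and 26.9% of all genes). Without the pair of libraries, 4 of the 7 differed in feeding time alone (background 26.9%). Hnrnpd (AUF1), which binds AU-rich elements and is known for controlling mRNA decay, was the clearest. Over the 28 NRF libraries Hnrnpd ranged from 11.9 TPM to 22.4 TPM with a median of 15.9 TPM, and over the 28 DRF libraries from 11.2 TPM to 17.3 TPM with a median of 15.2 TPM. At ZT16, near its lowest, it read 11.9, 12.3, 13.9 and 12.4 TPM under NRF and 12.6, 11.2, 11.6 and 11.3 TPM under DRF, and the groups overlapped. The fitted peak was at ZT5.82 under NRF (1.47-fold from trough to peak) and ZT5.04 under DRF (1.34-fold). The shift was -0.776 h (95% interval -2.18 to 0.631 h), and the adjusted p was 0.441 at the same ZT and 5.11e-10 in feeding time.

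Hnrnpa1, a factor that binds splicing silencers, ranged from 72.9 to 123 TPM (median 94.4 TPM) under NRF and from 78.2 to 110 TPM (median 97 TPM) under DRF. Its course ran alongside in both regimens, with peaks at ZT6.94 and ZT6.46 and a shift of -0.478 h (95% interval -2.38 to 1.42 h). Hnrnpa3 peaked at ZT5.34 under NRF and ZT4.96 under DRF, although its adjusted p under DRF was 0.0829. Hnrnpdl, a close relative of Hnrnpd, had the second widest swing under NRF (1.53-fold, peak ZT7.48), and its adjusted p under DRF was 0.134. For Hnrnpdl the library labelled DRF ZT4 replicate 1 read 61.6 TPM against 33.8 to 40.8 TPM in the other replicates, and without the pair of libraries its difference at the same ZT was called as well (adjusted p = 0.00996). Hnrnpa0 and Hnrnpab also differed in feeding time alone (adjusted p = 0.00249 and 0.00119).

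Hnrnpa2b1 was the exception in this type. It was the most abundant member, with a mean of 162 TPM, and encodes a factor that binds UAG-containing motifs and sorts RNAs and microRNA precursors. At ZT20 it read 185, 184, 170 and 169 TPM under NRF and 151, 138, 157 and 151 TPM under DRF, without overlap (log2 difference -0.24, SE 0.06, adjusted p = 0.00262). The swing was small, 1.12-fold under NRF with a peak at ZT21.3 and 1.11-fold under DRF with a peak at ZT9.34. The fitted peaks thus lay 12 h apart (95% interval of the shift -15.2 to -8.76 h), and the rhythm differed at the same ZT (adjusted p = 0.000539). In feeding time the adjusted p was 0.995. The DRF rhythm was near the threshold, at an adjusted p of 0.041 with all libraries and 0.0504 without the pair. The DRF call was lost in 14 of 20 alternatives (adjusted p up to 0.365) and the NRF call in 8 (up to 0.162).

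The genes of the C, M, R, K and L type were divided. Hnrnpk, which binds C-rich RNA and DNA, and Hnrnpr had peaks in the light phase under both regimens. Hnrnpk peaked at ZT7.14 and ZT5.25, with a ratio of 1.32-fold under NRF and 1.36-fold under DRF, and differed in feeding time alone (adjusted p = 2.74e-09). At ZT16 and ZT20 all of its 16 libraries lay between 63 and 80.2 TPM, and at ZT8 its 8 libraries lay between 82 and 109 TPM. The fitted shift was -1.89 h (95% interval -3.37 to -0.413 h), and the test at the same ZT was not passed (adjusted p = 0.127).

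Hnrnpm, which binds GU-rich sites, and Hnrnpc, which binds U tracts and is part of the core hnRNP particle, peaked at the end of the dark phase under NRF. For Hnrnpm the ZT0 libraries read 58.2, 49.9, 53.8 and 52.2 TPM under NRF and 39.5, 42.7, 41.8 and 39.4 TPM under DRF, without overlap (log2 difference -0.38, SE 0.07, adjusted p = 8.97e-05). Its peak was at ZT22.4 under NRF and its fitted DRF peak at ZT8.1, where the DRF rhythm had an adjusted p of 0.0737, and its rhythm differed at the same ZT alone (adjusted p = 3.42e-05). At ZT24 the Hnrnpm difference was -0.12 (SE 0.07, adjusted p = 0.275). Hnrnpm shares exon bases with March2 on the same strand. For Hnrnpc the ZT0 libraries read 83.7, 75.5, 78.3 and 71.1 TPM under NRF and 60.7, 61.9, 60.7 and 62.6 TPM under DRF, again without overlap (log2 difference -0.32, SE 0.06, adjusted p = 0.000398). At ZT24 the Hnrnpc difference was -0.14 (adjusted p = 0.155), so that the ZT0 call was not repeated for either gene. Hnrnpc was rhythmic under NRF (1.25-fold, adjusted p = 1.66e-05), and under DRF its fitted ratio was 1.01-fold (adjusted p = 0.993), so that no DRF peak time could be given. Its rhythm differed in both tests (adjusted p = 0.00073 at the same ZT and 0.000679 in feeding time).

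Hnrnpl, which binds CA repeats, resembled Srsf5. Its peak was at ZT7.96 under NRF and ZT2.18 under DRF, 5.78 h earlier (95% interval of the shift -8.25 to -3.32 h), with ratios of 1.39-fold and 1.3-fold. Its DRF rhythm call (adjusted p = 0.015) was lost in 7 of 20 alternatives (up to 0.26). Its rhythm differed at the same ZT (adjusted p = 0.00168) and in feeding time (0.00171). The former call was lost without replicate 3 (0.0562) and the latter without ZT16 (0.149). Hnrnpr moved the other way by 2.69 h (95% interval 1.03 to 4.36 h). Hnrnpll was called in no test.

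The members of the F/H type bind runs of G. For the difference at the same ZT, Hnrnph3 of this type had the smallest adjusted p of all members (7.83e-07). This held in TPM with all libraries. With median-of-ratios scaling (2.22e-07) and without the pair of libraries (4.06e-08), Srsf3 had the smallest. At ZT0 Hnrnph3 read 28.8, 27, 30.2 and 29.4 TPM under NRF and 19.1, 22.4, 22.5 and 23.8 TPM under DRF. At ZT12 it read 21.4, 18.6, 20 and 18.7 TPM under NRF and 23.6, 22.7, 26.6 and 25.2 TPM under DRF. The NRF libraries were thus all higher at ZT0 and all lower at ZT12, with no overlap at either time. The log2 differences were -0.38 (SE 0.06, adjusted p = 7.23e-05) at ZT0, 0.30 at ZT12 and -0.27 at ZT20. The ZT20 call was lost in 5 of 19 alternatives (adjusted p up to 0.137), among them median-of-ratios scaling. At ZT24, the same light-dark time as ZT0, Hnrnph3 read 28, 26, 26 and 24.4 TPM under NRF and 24.7, 24.3, 25.9 and 26.5 TPM under DRF, and the groups overlapped (log2 difference -0.04, adjusted p = 0.751). Under NRF the swing was 1.34-fold with a peak at ZT23.2 (adjusted p = 1.37e-06). Under DRF the fitted ratio was 1.12-fold with an adjusted p of 0.0754. The rhythms also differed in feeding time (adjusted p = 0.000657), so by this test the DRF course was not the NRF course moved by 12 h. Hnrnph3 shares exon bases with Rufy2 on the other strand, and their reads cannot be told apart.

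Hnrnph1 also peaked late in the dark phase under NRF (ZT22.1, 1.2-fold, adjusted p = 0.00697) and differed at the same ZT alone (adjusted p = 0.00301). Hnrnpf was rhythmic under DRF (peak ZT7.95, adjusted p = 0.00713) and not called under NRF (0.912), and the difference between regimens was called in feeding time (0.0225) and not at the same ZT (0.0999). With median-of-ratios scaling this was turned round for Hnrnpf, with adjusted p = 0.00828 at the same ZT and 0.0628 in feeding time, and the feeding-time call was lost in 10 of 20 alternatives. Hnrnph2 differed in feeding time alone (adjusted p = 0.0273) without passing the rhythm test in either regimen, and this call was lost in 7 of 20 alternatives (adjusted p up to 0.192). In the U type, whose members bind chromatin-associated RNA, Hnrnpul1 was rhythmic under DRF (peak ZT3.58, adjusted p = 0.00164), Hnrnpul2 differed at the same ZT alone (adjusted p = 0.0111), and Hnrnpu was called in none of the rhythm tests.

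Over the 10 members rhythmic under both regimens, the median absolute shift of the peak was 3.19 h, beside 3.81 h over the 2430 such genes. This median depended on the scaling and on single replicates, at 6.21 h with median-of-ratios scaling, 6.3 h with TMM, 6.31 h with limma-voom, 2.64 h without the pair of libraries and 1.56 h without replicate 3. With the limits of the study, 6 were phase locked (0 to 4 h: Srsf2, Hnrnpa0, Hnrnpa1, Hnrnpd, Hnrnpk and Hnrnpr), 2 were phase inverted (8 to 12 h: Srsf3 and Hnrnpa2b1) and 2 lay between (Srsf5 and Hnrnpl). Over all such genes the shares were 52.2% locked, 17.6% inverted and 30.2% between. These classes come from the fitted shift alone. The DRF rhythm calls they rest on were lost in some alternatives for Srsf2, Srsf5, Hnrnpa0, Hnrnpa1, Hnrnpa2b1 and Hnrnpl. The 95% interval reached past 4 h for 3 of the locked members (Hnrnpa0 -6.5 to -0.854 h, Srsf2 -4.47 to 0.357 h, Hnrnpr 1.03 to 4.36 h). For Srsf5 and Hnrnpl it reached into both other classes.

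Calls at single times were unevenly spread. Most calls between regimens fell at ZT20, with 8 members (background 14.9%), and at ZT0, with 7 members (11.5%). Fewer were called at ZT12 (3 members, 7.62%), ZT16 (2 members, 6.87%) and ZT24 (2 members, 8.8%). At ZT0 all 7 were lower under DRF (background 8.42% for that direction), and these were Srsf3, Hnrnpa2b1, Hnrnpc, Hnrnpm, Hnrnpr, Hnrnph1 and Hnrnph3. ZT24 is the same light-dark time sampled again, and of these 7 members Srsf3 alone was called there. The ZT0 groups also lay at the extremes of the cardiomyocyte marker sum, as given below. At ZT12 all 3 (Srsf3, Srsf10 and Hnrnph3) were higher under DRF, against 1.27% of all genes in that direction. At ZT16 both (Srsf1 and Hnrnpu) were lower (6.23%). At ZT20 there were 7 lower (11.5%) and 1 higher (Srsf5, 3.34%), and at ZT24 Srsf3 was lower (4.44%) and Srsf5 higher (4.36%). With limma, 0 members were called at ZT4 (0.446%) and 0 at ZT8 (0.353%), where 7 and 4 had an unadjusted p under 0.05, and limma-voom called 0 and 1. Without the pair of libraries, 5 members were called at ZT4 (background 3.45%) and 10 at ZT20 (16.7%). The directions depended in part on the scaling. With median-of-ratios scaling there were 5 lower (7.51%) and 1 higher (6.58%) at ZT0, 8 higher at ZT12 (4.66%), 1 lower at ZT16 (2.25%), 7 lower (8.44%) and 3 higher (8.65%) at ZT20, and 1 lower (8.15%) and 2 higher (7.44%) at ZT24. A single library changed some of these counts by more than 1.5 times: without DRF ZT0 replicate 1 the ZT0 count was 4, and without NRF ZT4 replicate 4 the ZT12 count was 5.

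**Figure D3:**
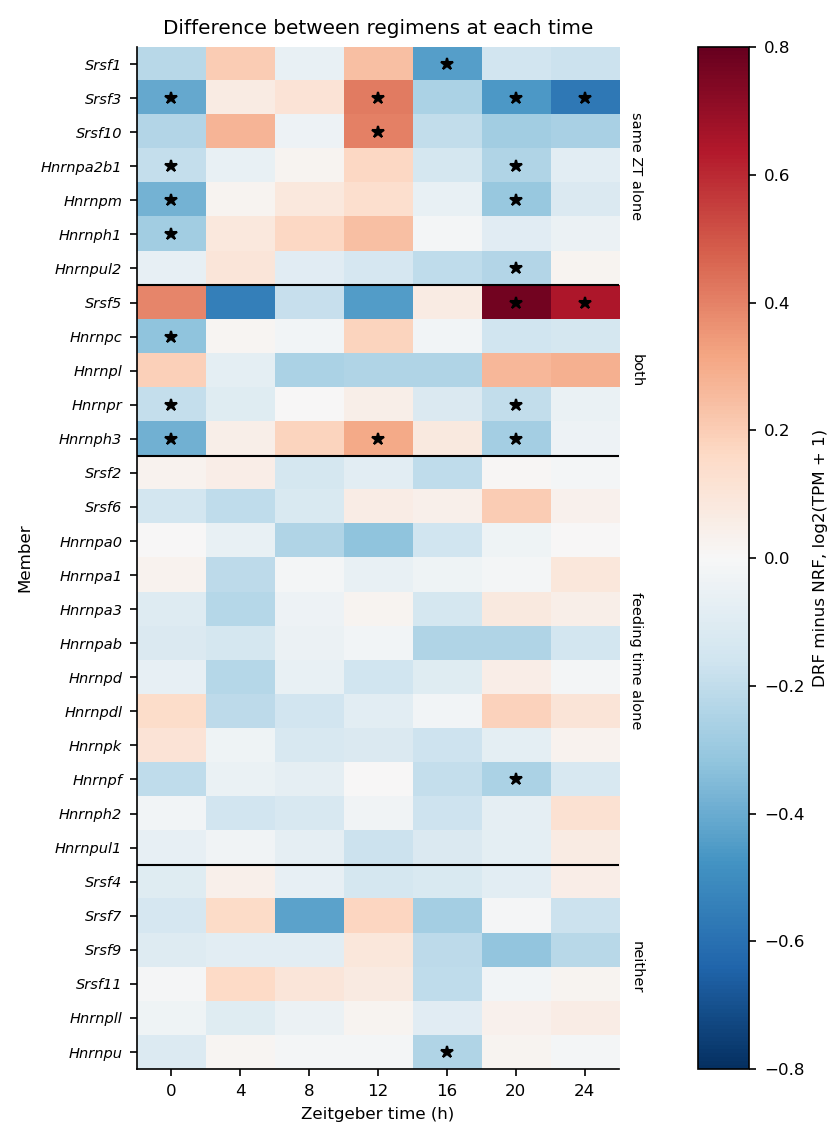
Difference of group means, DRF minus NRF, on the log2(TPM + 1) scale (colour) at each ZT in h (x axis) for the 30 tested members (y axis), grouped by the test in which their rhythms differed; stars mark an adjusted p under 0.05 by limma. All members of the upper block are blue at ZT0 and ZT20 and all but Hnrnpul2 are red at ZT12, from -0.57 to 0.42 for Srsf3, Srsf5 in the second block has the opposite pattern, reaching 0.77 at ZT20, and the third block holds 1 star.

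Mean levels over the day differed little, and the calls depended on the scaling and on single libraries. In TPM, 10 members were lower under DRF (background 24.3%) and 0 were higher (1.67%; 0 at an unadjusted p under 0.05). Without NRF ZT8 replicate 4 the count of lower members was 4, without replicate 3 it was 1, and over single libraries it ran up to 13. The largest were Hnrnpa0 (log2 difference -0.14, SE 0.05, adjusted p = 0.0268), Hnrnpab (-0.13, SE 0.04) and Srsf9 (-0.12, SE 0.04). Over 28 libraries each, Hnrnpa0 ranged from 73 to 132 TPM (median 90.8 TPM) under NRF and from 66.4 to 118 TPM (median 84.8 TPM) under DRF. Hnrnpab ranged from 88.2 to 137 TPM (median 108 TPM) under NRF and from 81.1 to 128 TPM (median 102 TPM) under DRF. For Srsf9 the values ran from 22.5 to 34.9 TPM (median 26.1 TPM) under NRF and from 19 to 32.5 TPM (median 23.4 TPM) under DRF. The ranges of the regimens overlapped widely for all 3. With median-of-ratios scaling, 1 member was lower (Hnrnpf, background 7.51%) and 1 was higher (Hnrnph1, 5.51%). Between the scalings the median of all genes moved by 0.06 on the log2 scale, and the median over the members in TPM was -0.06 (all genes -0.05). The sign of Hnrnpa2b1 was turned, from -0.06 to 0.00309.

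Other measures moved with the regimen beside the mean levels. The share of reads in mitochondrially encoded genes was 21.8 ± 1.47% (SD, n = 28) under DRF and 20.5 ± 1.57% under NRF. All 5 endothelial markers were lower under DRF in TPM (background 24.3% of all genes). Their sum was 394 to 693 TPM under DRF and 475 to 793 TPM under NRF. Also lower were 3 of 5 fibroblast, 3 of 4 smooth muscle and 3 of 4 macrophage markers. Of 5 cardiomyocyte markers, 1 was lower and 1 higher (background 1.67% for higher). With median-of-ratios scaling, 2 endothelial, 2 fibroblast, 1 smooth muscle and 2 macrophage markers were lower (background 7.51%). Atrial markers summed to 95.1 to 5488 TPM (median 1805 TPM) under DRF and 129 to 4313 TPM (median 610 TPM) under NRF. By group mean, the atrial sum was highest at DRF ZT0 (3778 TPM) and lowest at NRF ZT4 (425 TPM). The cardiomyocyte sum was lowest at DRF ZT0 (20476 TPM) and highest at NRF ZT0 (24407 TPM). None of the atrial, adipocyte, lymphocyte or red cell markers that were tested was called, and Lep, Cd3e and Ms4a1 of these were below the filter. Their part in the levels of the members was not tested. In whole hearts, fewer cells of a type and less RNA per cell cannot be told apart.

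**Figure D4:**
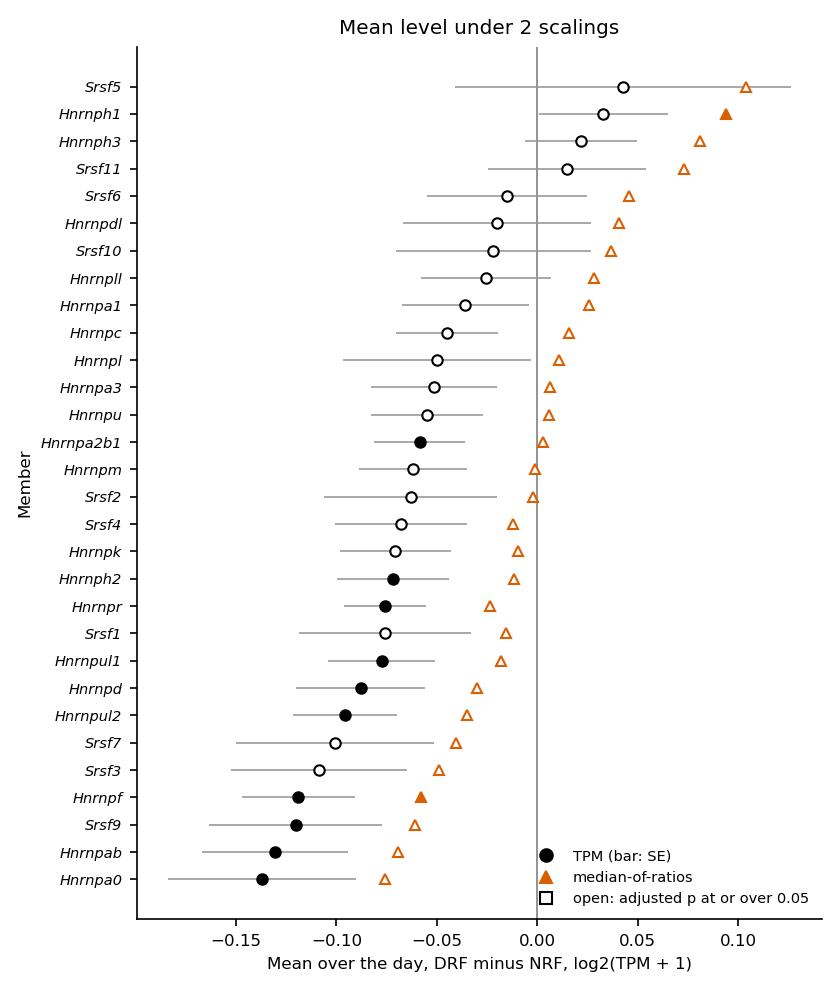
Difference in mean level over the day, DRF minus NRF, on the log2 scale (x axis) for the 30 tested members (y axis) in TPM (circles, bars are SE) and with median-of-ratios scaling (triangles); filled symbols have an adjusted p under 0.05. All triangles lie to the right of their circles, 10 circles and 2 triangles are filled, and the range in TPM is -0.14 to 0.04.

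The genes that act with the members were described from lists. SR protein kinases, which set the phosphorylation of SR proteins, gave 4 of 9 rhythmic under NRF (background 37.2%), 3 under DRF (32.2%) and 0 under both (17.5%), with 6 different in feeding time (41.3%) and 2 of these also at the same ZT (27.5%). When the pair of libraries was left out, 7 differed in feeding time (background 43.3%) and 3 of these at the same ZT (30.5%). These 3 were Srpk1, Srpk3 and Prpf4b, and Clk1 was no longer called at the same ZT. The shares within each regimen were near those of all genes. Clk1, a nuclear SR protein kinase, read 17.9, 17.8, 18.6 and 17.1 TPM at ZT12 and 14.4, 10.9, 10.2 and 12.7 TPM at ZT0 under NRF. At NRF ZT24 it read 19.2, 11.7, 11.7 and 11.8 TPM, where 1 library lay above those of ZT12. It had its NRF peak at ZT14.3 (adjusted p = 0.00128). Under DRF its adjusted p was 0.393. Srpk3, the muscle-specific SR protein kinase, had the reverse pattern, with an adjusted p of 0.472 under NRF and 1.09e-05 under DRF (peak ZT6.75), and its rhythm differed at the same ZT (0.00582).

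Of 18 relatives under other symbols, 7 were rhythmic under NRF (background 37.2%), 7 under DRF (32.2%) and 5 under both (17.5%), and 6 differed at the same ZT alone (13.1%). Tardbp and Elavl1 differed at the same ZT alone, with shifts of 10.1 h in absolute value for Tardbp and 9.26 h for Elavl1. Of 10 muscle and heart splicing regulators, 8 passed the NRF test (37.2%) and 3 the DRF test (32.2%), and the gene for the titin splicing factor, Rbm20, peaked at ZT11.8 under NRF (adjusted p = 0.0137) and had an adjusted p of 0.366 under DRF. The core spliceosome list had 29 genes, with 8 rhythmic in NRF hearts (37.2%) and 14 in DRF hearts (32.2%). Of these 29, 11 differed at the same ZT (27.5%), and 12 did without the pair of libraries (30.5%). In TPM 13 were lower under DRF (24.3%), and with median-of-ratios scaling 1 was (7.51%).

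The genes outside the members whose 14 group means followed Hnrnph3 most closely were Ube2ql1 (Pearson r = 0.940), Khdrbs3 (0.913), Slc18b1 (0.901), Hsf1 (0.898) and Arhgef19 (0.896). Khdrbs3 encodes a splicing regulator of the STAR family and Hsf1 the main heat shock transcription factor. These coefficients describe 14 points that share their libraries with Hnrnph3.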

How the data were processed

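Whole-heart polyA RNA-seq was analysed in 56 libraries grouped by regimen and ZT from the labels. Per the submitters' processing notes, HISAT2 2.0.5, featureCounts 1.5.0-p3 and mm10 were used; the annotation and the use of strand are not given in the sources used here. The deposited values, which the authors named TPM, were another unit: a library constant times log2(1 + scaled reads), divided by gene length. Whole reads were recovered from their steps (99.9998% of 1192377 values within 0.1 of a whole read), using exon lengths of GENCODE M21, which also gave the symbols; lengths were searched for Hnrnpm, Srsf7 and Hnrnpul2. PCR copies were not marked, so reads are not independent molecules.

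Linear TPM was computed, and log2(TPM + 1) was tested for the 13893 genes whose mean reached 1 TPM, with limma 3.58.1 (R 4.3.3; F tests of a 24 h harmonic, its interaction with regimen, and contrasts at each ZT; Benjamini-Hochberg over all genes tested). The design had assumed linear TPM. Standard errors of peak times came from the delta method. The fits and the recovery were tested on simulated data. Described in full were the 5 members with the smallest adjusted p at the same ZT, the 3 with the largest amplitude under each regimen, the 3 largest called mean-level differences, the 3 most abundant of each family and the 2 called at the most ZTs; every other member is accounted for. Members and lists were chosen with earlier results of these data known. Near-identical copies were found with BLAST 2.17.0, and promoters came from RefSeq. Alternatives were other scalings (median-of-ratios, TMM), a pseudocount of 0.1, no filter, limma-voom on reads, the deposited values, a replicate block, an adjusted p under 0.01, and leaving out replicates, ZTs or libraries; leaving out the pair of libraries that stood apart was chosen after seeing the data.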

Additional observations from a re-analysis of the deposited data

Results flagged for a closer look

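In 434 groups of 4 libraries, formed by 31 members and 14 groups, 27 had a replicate set apart from the others by a gap past Dixon's 95% critical value. Chance sets apart a replicate in about 1 in 20 groups. Of the 27, 5 lay in the pair of libraries that each stood nearest to the group of the other: Srsf3 in DRF ZT4 replicate 1 (21.2 TPM, others 31.5 to 32.3 TPM), Srsf5 in DRF ZT4 replicate 1 (119 TPM, others 41.3 to 54.6 TPM), Srsf10 in NRF ZT8 replicate 1 (25.8 TPM, others 14.8 to 15 TPM), Hnrnpa2b1 in NRF ZT8 replicate 1 (169 TPM, others 154 to 157 TPM) and Hnrnph3 in NRF ZT8 replicate 1 (24.4 TPM, others 21.8 to 21.9 TPM). Replicates above the rest were Srsf2 in NRF ZT0 replicate 4 (63 TPM, others 51.9 to 53.3 TPM), Srsf9 in DRF ZT12 replicate 4 (32.5 TPM, others 25.9 to 26.4 TPM), Srsf9 in NRF ZT8 replicate 4 (32.4 TPM, others 22.7 to 24.3 TPM), Srsf10 in DRF ZT20 replicate 4 (19.9 TPM, others 16.3 to 16.9 TPM), Srsf10 in NRF ZT12 replicate 1 (18.7 TPM, others 15.7 to 15.9 TPM), Srsf11 in NRF ZT16 replicate 2 (18.4 TPM, others 16.1 to 16.4 TPM), Hnrnpa2b1 in DRF ZT12 replicate 4 (197 TPM, others 160 to 165 TPM), Hnrnpm in NRF ZT12 replicate 1 (45.6 TPM, others 41.5 to 41.7 TPM), Hnrnpr in DRF ZT16 replicate 3 (4.89 TPM, others 4.46 to 4.52 TPM), Hnrnph1 in NRF ZT12 replicate 1 (57.3 TPM, others 47.1 to 48.3 TPM), Hnrnph2 in DRF ZT24 replicate 4 (44.6 TPM, others 37.5 to 38.7 TPM), Hnrnph2 in NRF ZT20 replicate 2 (39.1 TPM, others 34.7 to 35.3 TPM) and Hnrnpu in NRF ZT24 replicate 1 (49.7 TPM, others 42 to 42.8 TPM). Replicates below the rest were Srsf4 in DRF ZT4 replicate 4 (7.61 TPM, others 9.32 to 9.56 TPM), Srsf6 in NRF ZT12 replicate 4 (36.4 TPM, others 41.7 to 42 TPM), Hnrnpa1 in NRF ZT0 replicate 3 (94.6 TPM, others 102 to 104 TPM), Hnrnpab in NRF ZT0 replicate 2 (97 TPM, others 107 to 108 TPM), Hnrnpd in NRF ZT0 replicate 1 (13.9 TPM, others 17.3 to 18 TPM), Hnrnpdl in DRF ZT24 replicate 2 (39.6 TPM, others 43 to 43.6 TPM), Hnrnpm in DRF ZT8 replicate 2 (45.6 TPM, others 48.1 to 48.4 TPM), Hnrnpr in NRF ZT20 replicate 3 (5.12 TPM, others 5.66 to 5.75 TPM) and Hnrnpu in DRF ZT16 replicate 4 (35.5 TPM, others 39.8 to 40.5 TPM).

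The rhythm of 12 members differed between regimens at the same ZT by the interaction test. The adjusted p was 7.83e-07 for Hnrnph3, 1.17e-06 for Srsf3, 3.42e-05 for Hnrnpm, 0.000539 for Hnrnpa2b1, 0.00073 for Hnrnpc, 0.000969 for Srsf5, 0.00168 for Hnrnpl, 0.00301 for Hnrnph1, 0.00513 for Srsf10, 0.0111 for Hnrnpul2, 0.0167 for Srsf1 and 0.0199 for Hnrnpr. Each p came from 28 libraries per regimen.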

How the results depend on the processing

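The calls of a different rhythm at the same ZT held for Srsf3, Srsf5, Hnrnpc, Hnrnpm and Hnrnph3 under all 20 alternatives run on them, and those of Srsf1, Srsf10, Hnrnpa2b1, Hnrnpl, Hnrnpr, Hnrnph1 and Hnrnpul2 were lost under at least 1. Calls in feeding time were lost under at least 1 for Srsf5, Srsf6, Hnrnpa0, Hnrnpl, Hnrnpf, Hnrnph2 and Hnrnph3. Median-of-ratios and TMM scaling and limma-voom each gave 8 members different in both tests, 1 higher and 1 lower in mean level, 8 at ZT12 and 1 at ZT16, and limma-voom gave 1 at ZT8. The sign of the Hnrnpa2b1 mean level was turned, to 0.00309 (median-of-ratios), 0.00348 (TMM) and 0.00306 (limma-voom). Without the filter, 6 were lower in mean level and 1 differed at ZT24. The deposited values gave 3 at the same ZT alone, 9 in both, 10 in neither, 3 lower in mean level, 1 at ZT4, 1 at ZT16 and 4 at ZT20. At an adjusted p under 0.01, 6 were rhythmic under both regimens, 10 differed in neither, 4 were lower in mean level, and 4, 1, 1 and 1 were called at ZT0, ZT12, ZT16 and ZT24.

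Leaving out a ZT moved counts both ways. Rhythms under DRF rose to 17 without ZT8 or without ZT12 and to 15 without ZT4. Without ZT16, 8 were rhythmic under DRF, 5 under both regimens, 11 differed in feeding time, 3 in both, 11 in neither, 2 were lower in mean level and 1 differed at ZT24. Without ZT4, 4 differed at the same ZT alone, 1 at ZT8 and 5 at ZT12. Without ZT12, 3 differed in both. Without ZT20, 6 were rhythmic under both, 6 were lower in mean level, and 1 differed at ZT8 and 1 at ZT24. Without ZT0 and without ZT8, 5 and 2 were lower in mean level. Without the pair of libraries, 15 differed at the same ZT, 9 in both and 5 at ZT4.

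Leaving out replicate numbers 1 to 4 in turn gave 7 to 17 rhythmic under DRF, 5 to 7 under both, 7 to 14 different at the same ZT, 4 to 8 at the same ZT alone, 3 to 6 in both, 6 to 11 in neither, 1 to 9 lower in mean level, and 3 to 7 (ZT0), 0 to 8 (ZT4), 0 to 6 (ZT12), 0 to 4 (ZT16), 2 to 12 (ZT20) and 1 to 4 (ZT24) members called at a ZT. Over all 56 single libraries the ranges were 4 to 13 lower in mean level (4 without NRF ZT8 replicate 4, 6 without DRF ZT12 replicate 3, DRF ZT16 replicate 4 or NRF ZT4 replicate 4), 4 to 8 (ZT0), 0 to 3 (ZT4), 0 to 1 (ZT8), 2 to 5 (ZT12), 1 to 3 (ZT16) and 1 to 2 (ZT24). The cause of these changes was not tested, and each of these fits also had fewer samples.

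Replicate numbers were not taken to pair the samples, since the mean correlation of same-numbered deviations was 0.0545, 0.0157, 0.000647 and -0.00333 for numbers 1 to 4. As a hint from the data, 21 of 56 libraries correlated best with their own number, where an even split gives 14. With the replicate block, 12 members differed at the same ZT, 17 in feeding time, 18 were rhythmic under NRF, 13 under DRF, 9 were lower in mean level and 9 differed at ZT20. Fitted without the filter, Srsf12 was not called rhythmic (adjusted p = 0.238 under NRF and 0.885 under DRF). What rhythm could be detected at its 2.95 reads per library was not tested.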
